A study of Mus musculus with 72 samples.

Results

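Interferon response genes are the genes that cells switch on after interferon, and 37 of them were followed here through untreated and retinoic acid-treated mouse acute promyelocytic leukaemia (APL). The list names 39 genes, and each gene was read from its brightest probe set that carries exactly 1 gene symbol. Of the 39, 37 were found among 19938 genes read in the same way. Isg15 has a probe set that carries several symbols, Ifi44 is not listed in the annotation used here, and both were not analysed here. Irf1 and Ifitm1 had 2 probe sets each and every other member had 1.

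The study profiled bone marrow on 72 Affymetrix Mouse Gene 1.0 ST arrays, and its title names the re-formation of PML nuclear bodies and p53 activation as the event that therapy sets off. Transgenic leukaemias carried either PML/RARA (24 arrays) or PLZF/RARA (12 arrays), with WT as the labelled background. In the viral model PML/RARA was introduced by viral transduction into a background labelled WT (18 arrays) or pml-/- (18 arrays). Within each of these 4 leukaemia types, arrays were untreated or treated with retinoic acid (RA) and were taken at 6 h or 12 h. At both times PML/RARA transgenic leukaemia was read on 4 untreated arrays and 8 with RA, and PLZF/RARA transgenic leukaemia on 2 and 4. For either viral background the numbers were 4 and 8 at 6 h, falling to 2 and 4 at 12 h. All 72 samples are leukaemic marrow carrying a RARA fusion, so no healthy marrow entered any comparison. The sources used here do not give the promoter of the transgenes, the strain and age of the mice, the RA dose or the clonality of the leukaemias. Whether the arrays within a group represent different animals is not stated, so the p-values measure only a spread between arrays, which may be technical. That spread was estimated over all groups of a model together and not from the compared groups alone.

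Type I interferons bind a receptor made of Ifnar1 and Ifnar2, and the kinases Jak1 and Tyk2 then pass the signal on by phosphorylation. Stat2 and Irf9 act in the complex ISGF3, which binds the interferon-stimulated response element (ISRE) in the promoters of target genes, whereas interferon gamma acts on gamma-activated sites (GAS), as in the promoter of Irf1. Several of these genes were met early in APL: Ddx58 encodes RIG-I, whose name stands for retinoic acid-inducible gene I, and Pml itself is an interferon target.

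Promoter windows were available for 28 of the 37 members, from 250 bases before to 50 bases after the start of the gene (RefSeq, GRCm38.p6). Dhx58, Zbp1, Oas2, Mx1, Mx2, Rtp4, Usp18, Parp9 and Parp14 had none. The ISRE core GAAANNGAAA, searched on both strands, was present in 12 of the 28 members (42.9%) and in 3.99% of the 27025 genes with such windows. The GAS sequence TTCNNNGAA, which reads the same on both strands, was present in 7 of the 28 (25%) and in 9.55% of all genes. The stretches below show the matches of 8 members whose values recur in the results, 5′ to 3′ on the strand of the gene, with the match named for each member in capitals. In Bst2 a pair of ISRE matches overlap and are both in capitals, and a GAS match that overlaps the first of them is not marked. For Ifit1, Ifit3, Stat2 and Trim30a the match lies on the other strand and reads as its reverse complement. Irf1 (chr11:53769899-53769957) and Isg20 (chr7:78913326-78913384) have their GAS match in capitals, and the other 6 their ISRE matches.
Irf1: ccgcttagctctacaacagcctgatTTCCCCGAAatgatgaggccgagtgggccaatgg
Isg20: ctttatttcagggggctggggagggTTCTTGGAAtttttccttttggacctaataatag
Ifit1 (chr19:34640779-34640838): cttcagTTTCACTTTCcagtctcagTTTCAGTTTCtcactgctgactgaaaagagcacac
Ifit3 (chr19:34583382-34583441): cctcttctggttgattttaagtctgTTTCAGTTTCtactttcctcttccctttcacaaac
Oas3 (chr5:120777700-120777759): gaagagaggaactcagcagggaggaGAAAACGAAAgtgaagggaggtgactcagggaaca
Trim30a (chr7:104465195-104465254): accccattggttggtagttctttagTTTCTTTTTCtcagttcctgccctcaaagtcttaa
Stat2 (chr10:128270251-128270310): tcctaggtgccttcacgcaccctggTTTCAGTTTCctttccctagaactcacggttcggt
Bst2 (chr8:71537562-71537621): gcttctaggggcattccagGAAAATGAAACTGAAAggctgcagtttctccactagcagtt
A match is a string of letters in a window and not a known binding site. Members with and without an ISRE match in the window are set beside the RA effects further on.

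The values are on the log2 scale, so a difference of 1 is a doubling. Levels of different genes come from different probes and are not compared with each other. Array medians ran from 6.56 to 6.81. No batch, by the batch number in the labels, holds arrays of both models, so leukaemia types are compared only within a model. The level of Pml itself did not separate the leukaemias labelled pml-/- from WT (untreated difference 0.04 ± 0.13 SE, limma adjusted p = 0.916). The part of Pml that the allele lacks and the position of the probes are not stated in any source used here, so this level checks nothing about the label. The promyelocyte and leukaemia cell markers, called promyelocyte markers further on, were Mpo, Elane, Ctsg, Prtn3, Kit and Cd34. Their mean lay between 11.56 and 12.36 on every array, and a mean does not give the level of each gene. A change in bulk marrow can come from fewer cells of a type or from less RNA per cell, and these cannot be told apart.

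Untreated leukaemias were compared first, PML/RARA against PLZF/RARA in the transgenic model, both times averaged (8 against 4 arrays). Interferon response genes were higher in PML/RARA leukaemia for 30 of 37 members and lower for 1, Ifitm1, with a median difference of 1.05 against 0.01 for all genes. Over all 19938 genes, 13.1% were called higher and 12.2% lower, at a Benjamini-Hochberg adjusted p below 0.05 from limma, the threshold for every call here. The 26 members whose untreated arrays did not overlap upward compare with 8.63% of all genes, and the 1 downward, Ifitm1, with 8.88%.

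Rtp4, a receptor-transporting protein that is also an antiviral gene, had the largest upward difference, 4.04 ± 0.35 (SE), a 16.4-fold higher level in PML/RARA leukaemia. Its untreated PML/RARA arrays lay between 9.46 and 10.37, and the PLZF/RARA arrays read 4.83 and 7.06 at 6 h and 5.67 and 5.36 at 12 h. The groups were far apart, and the second PLZF/RARA array at 6 h was the highest of its 4. Oas2, which makes the oligoadenylates that activate RNase L, differed by 3.64 ± 0.33, and its relative Oas3 by 2.76 ± 0.27. The same PLZF/RARA array also read highest of the 4 for Oas2, at 8.69 against 6.28 to 6.72 for the others. The antiviral enzyme Rsad2 (viperin) differed by 2.42 ± 0.28 and the ISG15 protease Usp18 by 2.42 ± 0.32.

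Ifitm1 went the other way by a wide margin. It encodes a membrane protein that hinders viral entry, and early haematopoietic cells also express it. Its level was 13.18 and 13.21 at 6 h and 13.20 and 13.26 at 12 h in untreated PLZF/RARA leukaemia. In untreated PML/RARA leukaemia it lay between 8.57 and 9.57, so that the fitted difference was -4.15 ± 0.18 (17.7-fold lower). Its neighbour in function, Ifitm3, differed by 0.34 ± 0.16 (adjusted p = 0.115). Stat2, Dtx3l, Ifi35, Cmpk2 and Bst2 also missed the threshold, with differences between -0.09 and 0.32. Within batch 1 alone, an alternative chosen after the data were seen, 28 members were higher and 1 lower.

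In the viral model, 35 of 37 members were higher in untreated WT than in untreated pml-/- leukaemia (6 against 6 arrays) and none was lower. The median difference was 1.24 against -0.01 for all genes, of which 9.92% were called higher and 10.9% lower. The arrays did not overlap, upward, for 34 members, against 8.29% of all genes. Stat2 (0.43 ± 0.16, adjusted p = 0.0556) and Mx1 (0.13 ± 0.07, adjusted p = 0.243) were not called. Within batch 3 alone 31 members were higher and within batch 4 alone 25, again an alternative added after the data were seen.

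The largest viral differences were in Ifitm1 (3.79 ± 0.21), Rtp4 (3.76 ± 0.21) and Ifitm3 (3.46 ± 0.18). Untreated WT arrays of Ifitm1 lay between 13.16 and 13.35. The pml-/- arrays read 9.45, 9.08, 8.71 and 9.54 at 6 h and 10.30 and 9.09 at 12 h. The untreated WT and pml-/- arrays of Ifitm1 were thus far apart, with the 6 WT arrays close together. Irf7, the factor that amplifies interferon production, was 2.32 ± 0.13 higher in WT, a 5.01-fold difference. Its untreated WT arrays ran from 9.86 to 10.71 and its pml-/- arrays from 7.49 to 8.28. Usp18 was 2.76 ± 0.31 higher and Ifit1, which binds foreign RNA, 2.86 ± 0.28 higher.

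**Figure D1:**
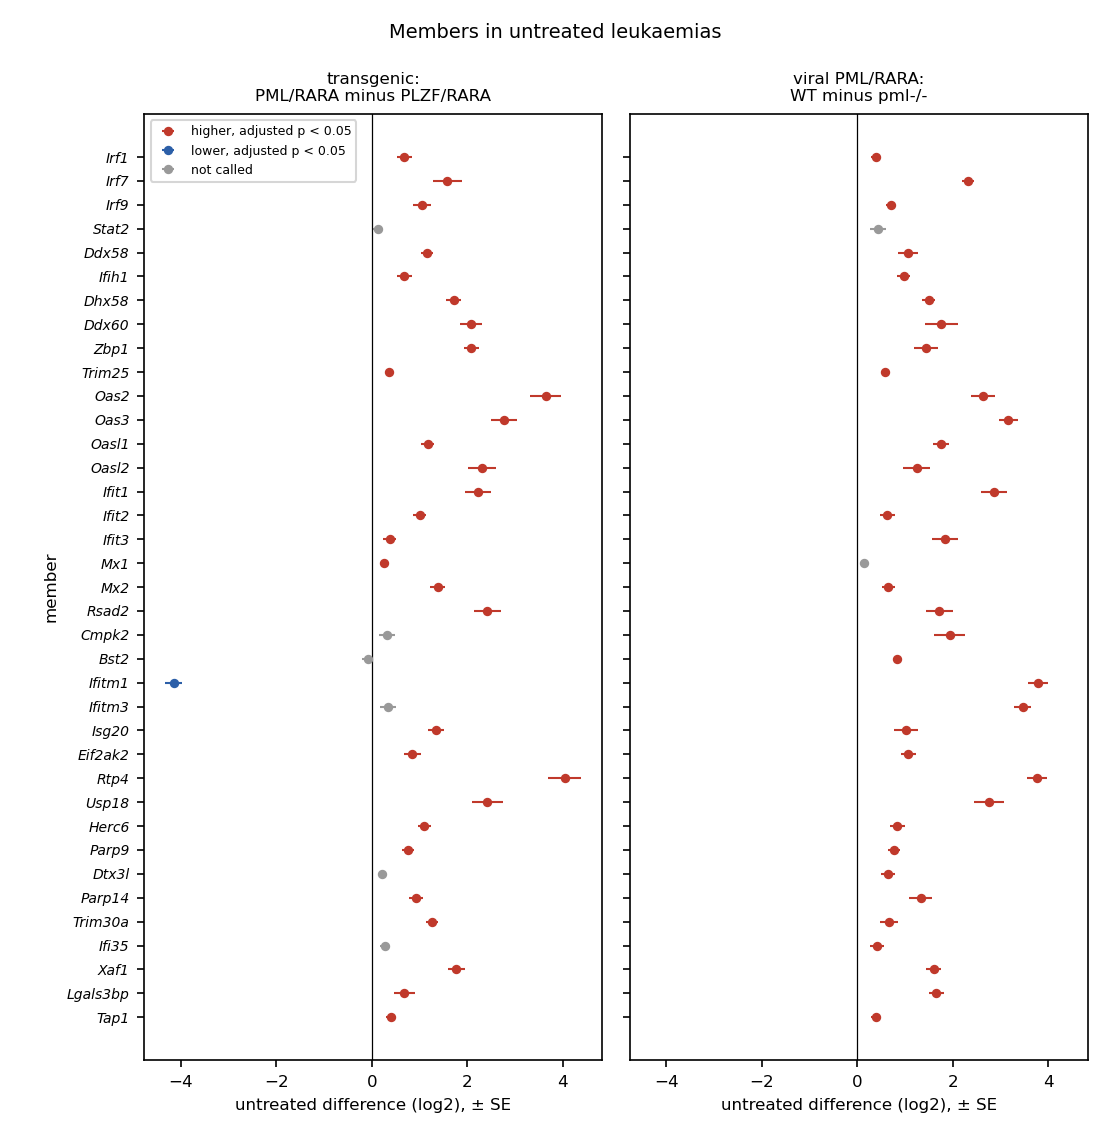
Untreated difference of each member (log2, ± SE, x axis) in the transgenic model, PML/RARA minus PLZF/RARA (left), and in the viral model, WT minus pml-/- (right). Red points are higher and blue points lower at an adjusted p below 0.05, and grey points were not called. Of the 37 members, 30 are red on the left and 35 on the right, and Ifitm1 lies at -4.15 on the left and 3.79 on the right.

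Markers of other cells moved with these untreated differences, and their part in the result was not tested. In the transgenic model 7 of 11 T and NK cell markers were higher and 1 lower in PML/RARA leukaemia, 5 of 6 erythroid markers were higher, and 6 of 9 monocyte and macrophage markers were higher and 2 lower. The mean level of the erythroid markers lay between 8.21 and 9.56 on untreated PML/RARA arrays and between 6.89 and 7.21 on untreated PLZF/RARA arrays. In the viral model 12 of 13 secondary granule and mature neutrophil markers were higher and 1 lower in WT (median 1.55), and 7 of 9 monocyte and macrophage markers were higher. The mean of the neutrophil markers was 11.08 to 11.68 on untreated WT arrays and 9.36 to 10.04 on untreated pml-/- arrays. Of the plasmacytoid dendritic cell markers, cells known for making much interferon, 5 of 8 were higher in PML/RARA leukaemia. In the viral model 2 were higher, among them the member Bst2, and 2 lower.

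With RA, Irf1 rose in all 8 comparisons of treated with untreated arrays. The counts of members called are given here by leukaemia type and time, and the differences between types and times are tested further on. In PML/RARA transgenic leukaemia 11 members rose at 6 h (5.81% of all genes rose) and 23 at 12 h (9.88%). In PLZF/RARA transgenic leukaemia 1 member rose at 6 h (1.45%) and 25 at 12 h (2.46%). In viral WT leukaemia 4 rose at 6 h (5.44%) and 2 at 12 h (3.03%). In viral leukaemia labelled pml-/- 2 rose at 6 h (4.97%) and 8 at 12 h (4.22%). No member fell past the threshold in any of the 8 comparisons. The shares of all genes that fell were 8.54% and 11.7% in PML/RARA at 6 h and 12 h, 0.747% and 1.57% in PLZF/RARA, 4.44% and 3.07% in viral WT and 6.38% and 1.83% in viral pml-/- leukaemia.

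The median change of the 37 members was 0.31 at 6 h and 0.53 at 12 h in PML/RARA, and -0.04 and 0.95 in PLZF/RARA. It was -0.09 and -0.01 in viral WT and 0.01 and 0.46 in viral pml-/- leukaemia. The median over all genes stayed between -0.05 and 0.06 in these comparisons. The batch term in the fit makes a fitted change differ slightly from the difference of plain means.

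The mean level of the 37 members on each array is given as a description. Untreated PML/RARA arrays read 9.37, 9.15, 9.04 and 9.06 at 6 h and 9.20, 9.39, 8.90 and 8.88 at 12 h. The RA arrays ran from 9.36 (median 9.45) to 9.54 at 6 h and from 9.59 (median 9.64) to 9.77 at 12 h. At 12 h the RA arrays of this type all lay above the untreated ones, and at 6 h the lowest RA array and the highest untreated array just overlapped. PLZF/RARA arrays at 6 h read 7.81 and 8.37 untreated and 8.04, 8.07, 7.85 and 8.15 with RA. At 12 h they read 7.86 and 7.86 untreated and 8.18, 8.85, 8.95 and 9.47 with RA. The untreated and RA arrays of PLZF/RARA leukaemia thus overlapped at 6 h and not at 12 h.

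Viral WT arrays began high and stayed there. They read 9.17, 9.29, 9.24 and 9.37 untreated at 6 h, and 8.94 (median 9.19) to 9.75 with RA. At 12 h they read 9.57 and 9.38 untreated and 9.56, 9.55, 9.17 and 9.55 with RA, so RA and untreated arrays overlapped at both times. Viral pml-/- arrays read 8.02, 7.85, 7.83 and 7.89 untreated at 6 h, and 7.68 (median 8.01) to 8.25 with RA. At 12 h they read 7.88 and 7.90 untreated and 8.42, 8.15, 8.64 and 8.45 with RA. Every RA array of this type at 12 h lay above its untreated arrays, yet below every untreated viral WT array.

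**Figure D2:**
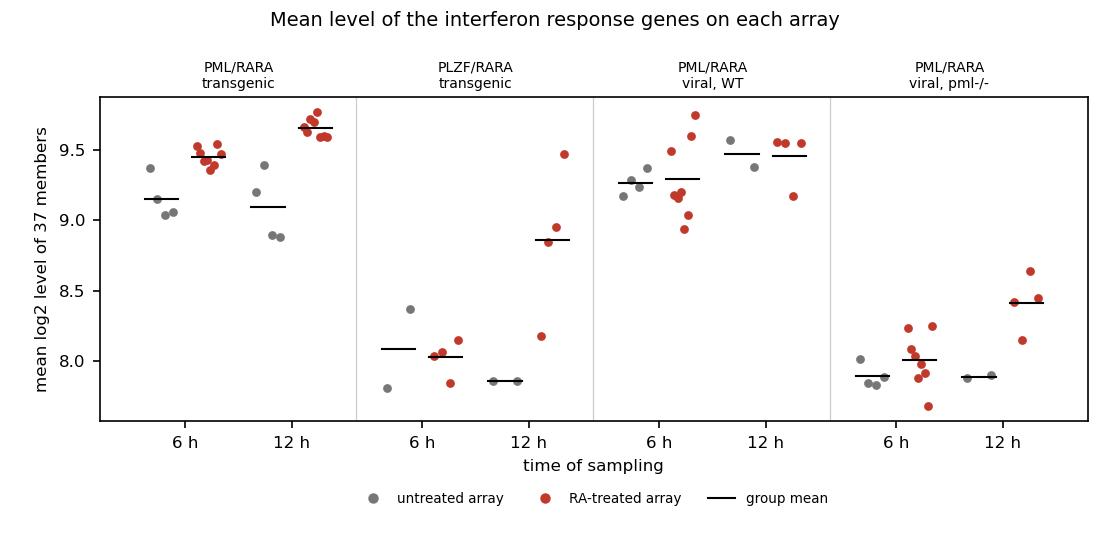
Mean log2 level of the 37 members on each of the 72 arrays (y axis) by leukaemia type and time (x axis), with untreated arrays in grey, RA arrays in red and a line at each group mean. The 4 RA arrays of PLZF/RARA leukaemia at 12 h spread from 8.18 to 9.47 above 2 untreated arrays at 7.86, and the viral WT arrays overlap at both times.

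**Figure D3:**
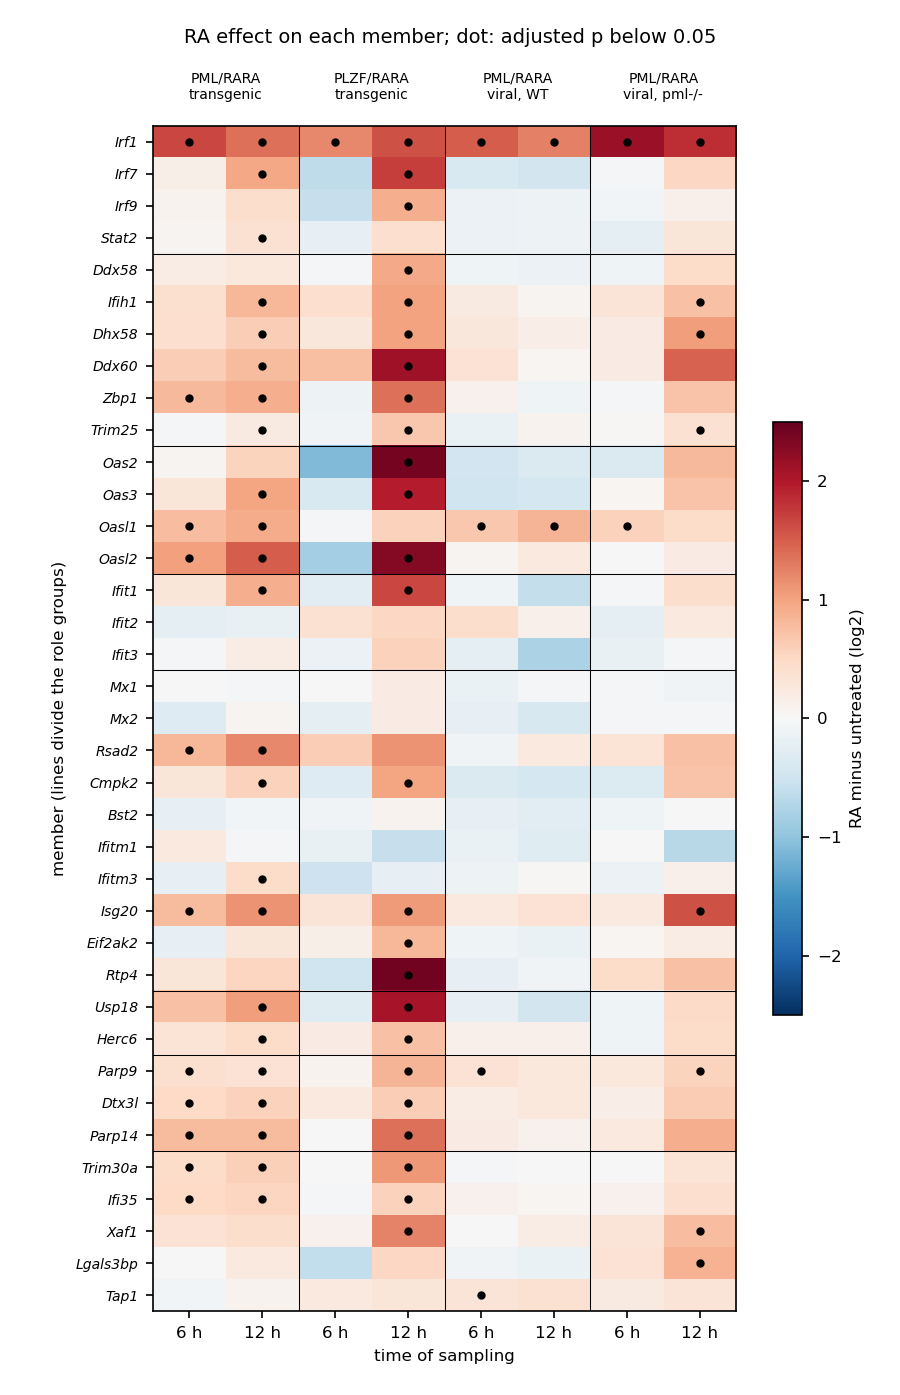
Change of each member with RA (log2, colour) in each leukaemia type and time (columns), members ordered by role (rows), with a dot where the adjusted p was below 0.05. Irf1 carries a dot in all 8 columns, and the 12 h columns of the transgenic leukaemias hold 23 and 25 dots.

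Among the regulators, Irf1, a transcription factor induced by interferon gamma and a driver of antiviral and antigen presentation genes, was the only member that rose in all 8 comparisons. Across all genes, 61 (0.306%) did so. In PML/RARA transgenic leukaemia Irf1 read 8.67, 8.84, 8.72 and 8.52 untreated and 9.80 (median 10.39) to 10.59 with RA at 6 h, a change of 1.67 ± 0.15. At 12 h it read 8.59, 9.05, 9.05 and 8.69 untreated and 9.75 (median 10.26) to 10.52 with RA, a change of 1.37 ± 0.15. Neither pair of groups overlapped. In PLZF/RARA leukaemia it read 8.16 and 8.40 untreated and 9.73, 9.19, 9.52 and 9.46 with RA at 6 h (change 1.20 ± 0.21). At 12 h it read 7.69 and 7.86 untreated and 9.0, 9.83, 9.31 and 9.32 with RA (change 1.59 ± 0.21). RA thus brought Irf1 past every untreated array here too, though no RA array reached 10 in this type.

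Irf1 in viral WT leukaemia read 8.23, 8.26, 8.43 and 8.43 untreated at 6 h and 9.61 (median 9.87) to 10.11 with RA, a change of 1.51 ± 0.11. At 12 h it read 8.58 and 8.57 untreated and 9.80, 9.82, 9.80 and 9.89 with RA, a change of 1.25 ± 0.15. In pml-/- leukaemia the untreated level was lower and the change larger, a difference tested further on. It read 7.95, 7.89, 7.87 and 8.11 untreated and 9.80 (median 10.15) to 10.29 with RA at 6 h, a change of 2.16 ± 0.11 or 4.48-fold. At 12 h it read 7.90 and 8.47 untreated and 10.03, 10.07, 9.66 and 10.33 with RA, a change of 1.84 ± 0.15. The 8 adjusted p-values ran from 2.82e-15 to 0.000697.

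Irf7 rose at 12 h in the transgenic leukaemias and passed the threshold in no viral comparison. In PML/RARA it read 9.44, 9.16, 9.29 and 9.33 untreated and 9.20 (median 9.46) to 9.79 with RA at 6 h, which overlap (0.15 ± 0.31). At 12 h it read 9.52, 9.54, 8.93 and 8.94 untreated and 9.76 (median 10.22) to 10.51 with RA, with no overlap (0.96 ± 0.30, adjusted p = 0.0164). In PLZF/RARA it read 7.55 and 8.77 untreated and 7.38, 7.69, 6.87 and 8.18 with RA at 6 h (-0.63 ± 0.42, adjusted p = 0.517). The 12 h arrays read 7.07 and 7.48 untreated and 7.39, 8.92, 9.19 and 10.48 with RA (1.72 ± 0.42, adjusted p = 0.0104). The first of these 4 RA arrays lay within the untreated pair and the fourth lay far above it. The PML/RARA call at 12 h was lost on leaving out either of 2 arrays (limma adjusted p of 0.0704 and 0.0705). The PLZF/RARA call at 12 h was lost on leaving out either of 2 arrays and in 1 other setting (0.0522 to 0.272).

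Irf7 in viral WT leukaemia read 10.03, 9.86, 10.24 and 10.36 untreated and 9.32 (median 9.71) to 10.24 with RA at 6 h. At 12 h the arrays read 10.71 and 10.39 untreated and 10.30, 10.24, 9.92 and 9.88 with RA, all below the untreated pair (-0.46 ± 0.18, adjusted p = 0.150). In pml-/- leukaemia it read 7.80, 7.49, 7.98 and 8.17 untreated and 7.32 (median 7.78) to 8.39 with RA at 6 h. Its 12 h levels were 8.28 and 8.04 untreated and 8.54, 8.68, 8.86 and 8.66 with RA, all above the untreated pair (0.52 ± 0.18, adjusted p = 0.0971). The arrays at 12 h were thus apart in opposite directions in the viral types, neither change passing the threshold.

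Stat2 and Irf9, which act in ISGF3, moved less. In PML/RARA leukaemia at 12 h Stat2 read 9.37, 9.54, 9.10 and 9.07 untreated and 9.58 (median 9.63) to 9.79 with RA (0.39 ± 0.10, adjusted p = 0.00332), with no overlap. The PLZF/RARA arrays of Stat2 at 12 h read 9.08 and 8.99 untreated and 9.11, 9.65, 9.45 and 9.60 with RA (0.42 ± 0.14, adjusted p = 0.0827). The arrays were apart in that comparison as well, although its adjusted p missed the threshold. Elsewhere Stat2 arrays overlapped, except at 12 h in pml-/- leukaemia, where they read 9.13 and 9.21 untreated and 9.39, 9.39, 9.58 and 9.55 with RA (0.31 ± 0.23, adjusted p = 0.607). In the 6 h groups the untreated arrays of Stat2 lay between 9.15 and 9.71 over the 4 types, and the RA arrays between 8.60 and 10.00. At 12 h in viral WT leukaemia it read 9.75 and 9.64 untreated and 9.70, 9.75, 9.33 and 9.52 with RA. Irf9 was called in PLZF/RARA leukaemia at 12 h (0.90 ± 0.24) and nowhere else, although its untreated and RA arrays overlapped there. In PML/RARA at 12 h its arrays were apart upward, and the change was not called (0.43 ± 0.17, adjusted p = 0.0672).

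Of the 6 sensors of foreign RNA and DNA, 5 rose at 12 h in PML/RARA, all 6 in PLZF/RARA transgenic leukaemia and 3 in viral pml-/- leukaemia. At 6 h only Zbp1, in PML/RARA leukaemia, was called. None was called in viral WT leukaemia at either time. Ddx58 (RIG-I), named for its induction by retinoic acid, rose by 0.95 ± 0.18 in PLZF/RARA leukaemia at 12 h (adjusted p = 0.000742). Its changes in the other 7 comparisons lay between -0.15 and 0.46 and were not called. Its relative Ifih1 (MDA5) rose at 12 h by 0.83 ± 0.15, 1.01 ± 0.21 and 0.73 ± 0.19 in PML/RARA, PLZF/RARA and viral pml-/- leukaemia, and Dhx58 (LGP2), which tunes both sensors, by 0.62 ± 0.15, 1.01 ± 0.21 and 1.04 ± 0.19. Trim25, the ubiquitin ligase that acts on RIG-I, rose in the same 3 comparisons by 0.22 to 0.68. The helicase Ddx60 rose by 2.11 ± 0.31 in PLZF/RARA leukaemia at 12 h, from 6.02 and 5.81 untreated to 7.03, 8.13, 8.14 and 8.82, and by 0.80 ± 0.22 in PML/RARA.

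Zbp1 senses Z-form nucleic acid and can start necroptosis. In PML/RARA leukaemia it read 9.70, 9.37, 9.09 and 9.11 untreated and 9.64 (median 10.12) to 10.32 with RA at 6 h, with the highest untreated array inside the RA range (0.81 ± 0.16, adjusted p = 0.000378). The 12 h arrays read 9.36, 9.65, 9.22 and 9.11 untreated and 10.04 (median 10.23) to 10.47 with RA, with no overlap (0.90 ± 0.16). PLZF/RARA arrays of Zbp1 at 6 h read 7.16 and 7.44 untreated and 7.21, 7.30, 6.68 and 7.55 with RA. These groups overlapped. At 12 h the arrays read 6.97 and 7.10 untreated and 7.63, 8.56, 8.52 and 8.95 with RA (1.38 ± 0.22, adjusted p = 0.000124). The 4 RA arrays were above both untreated arrays, yet none reached the untreated PML/RARA level. Zbp1 in viral WT leukaemia read 8.72, 8.51, 8.62 and 8.93 untreated and 8.07 (median 8.74) to 9.58 with RA at 6 h, and 9.17 and 8.74 untreated against 9.22, 9.22, 8.28 and 8.65 with RA at 12 h. Arrays labelled pml-/- read 7.53, 7.50, 7.42 and 7.38 untreated and 6.62 (median 7.45) to 8.02 with RA at 6 h, and 7.08 and 7.55 untreated against 7.76, 7.27, 8.52 and 8.57 with RA at 12 h. Untreated and RA arrays overlapped in all 4 viral comparisons.

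The oligoadenylate synthetase family split. Oasl1, which lacks the synthetase activity of its relatives and is known to restrain Irf7 translation in mice, rose in PML/RARA and viral WT leukaemia at both times and in pml-/- leukaemia at 6 h. Oas2 rose only in PLZF/RARA leukaemia at 12 h, and Oas3 and Oasl2 at 12 h in both transgenic types, with Oasl2 also rising at 6 h in PML/RARA. Oasl1 in PML/RARA leukaemia read 8.01, 8.06, 7.96 and 8.11 untreated and 8.51 (median 8.83) to 9.13 with RA at 6 h (0.78 ± 0.14). Its 12 h levels were 8.17, 8.24, 8.20 and 7.99 untreated and 8.86 (median 9.06) to 9.38 with RA (0.93 ± 0.14). The groups did not overlap at either time. In PLZF/RARA leukaemia it read 6.81 and 6.90 untreated and 6.74, 6.77, 7.02 and 6.76 with RA at 6 h, and 7.03 and 6.92 untreated against 7.07, 7.29, 7.51 and 8.36 at 12 h (0.58 ± 0.20, adjusted p = 0.0952). The groups overlapped at 6 h and were apart at 12 h, although the change at 12 h was not called.

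Oasl1 in viral WT leukaemia read 8.73, 8.62, 8.91 and 8.85 untreated and 9.29 (median 9.41) to 9.79 with RA at 6 h (0.68 ± 0.17, adjusted p = 0.00802). The 12 h arrays read 9.09 and 9.04 untreated and 9.43, 9.47, 10.11 and 10.64 with RA (0.85 ± 0.24, adjusted p = 0.0299). Both pairs of groups were apart, in a leukaemia type where nearly all other members were not called. In the pml-/- type it read 7.31, 7.18, 7.07 and 6.93 untreated and 7.28 (median 7.67) to 8.03 with RA at 6 h (0.57 ± 0.17, adjusted p = 0.0272), with a small overlap. At 12 h the arrays read 7.07 and 7.35 untreated and 7.29, 7.41, 8.15 and 7.84 with RA (0.46 ± 0.24, adjusted p = 0.362). These calls rest on few arrays: that in viral WT leukaemia at 12 h was lost without untreated replicate 1 or 2 or RA replicate 3 or 4 (adjusted p from 0.0673 to 0.254) and when only the groups compared entered the fit (0.301). The call in the pml-/- type at 6 h was lost without untreated replicate 2, 3 or 4 or RA replicate 3 or 5 (0.0515 to 0.105). Within batch 3 alone the 6 h calls of both viral types were lost (0.391 in WT and 0.433 in pml-/-).

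Of the IFIT family, whose proteins bind foreign RNA or its complexes, Ifit1 rose and Ifit2 and Ifit3 were called in no comparison. Ifit1 in PML/RARA leukaemia read 8.20, 7.87, 7.53 and 7.63 untreated and 7.62 (median 8.03) to 8.23 with RA at 6 h. Its 12 h levels were 8.04, 8.24, 7.26 and 7.11 untreated and 8.18 (median 8.54) to 8.93 with RA (0.91 ± 0.26, adjusted p = 0.0100). The groups overlapped at both times, at 12 h by 1 untreated array. PLZF/RARA arrays of Ifit1 read 5.36 and 5.75 untreated and 5.18, 5.02, 5.30 and 5.62 with RA at 6 h. The 12 h arrays read 5.43 and 5.15 untreated and 5.59, 6.58, 7.31 and 8.39 with RA (1.67 ± 0.37, adjusted p = 0.00483). The RA arrays at 12 h were widely spread and all lay above the untreated pair. Viral WT arrays read 8.01, 8.48, 8.18 and 8.48 untreated and 7.32 (median 8.14) to 9.07 with RA at 6 h, and 9.12 and 8.82 untreated against 8.44, 8.41, 7.97 and 8.65 at 12 h (-0.60 ± 0.40, adjusted p = 0.517). Arrays labelled pml-/- read 6.03, 5.86, 5.27 and 5.51 untreated and 5.25 (median 5.67) to 6.03 with RA at 6 h, and 5.78 and 5.94 untreated against 6.46, 5.13, 7.29 and 6.28 at 12 h. Neither viral type gave a called change, and the viral WT arrays at 12 h were lower with RA.

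Of the 10 other antiviral effectors, 2 rose at 6 h and 4 at 12 h in PML/RARA and 4 at 12 h in PLZF/RARA leukaemia. Isg20, an exonuclease that degrades viral RNA, rose in 4 of the 8 comparisons. In PML/RARA leukaemia it read 10.74, 10.36, 10.74 and 9.79 untreated and 10.82 (median 11.23) to 11.69 with RA at 6 h (0.80 ± 0.17), and 10.15, 10.22, 10.50 and 9.94 untreated against 11.03 (median 11.32) to 11.62 at 12 h (1.12 ± 0.17). PLZF/RARA arrays read 8.75 and 9.02 untreated and 9.0, 9.61, 8.98 and 9.21 with RA at 6 h, and 9.04 and 8.98 untreated against 9.81, 9.96, 9.95 and 10.58 at 12 h (1.07 ± 0.24). The groups overlapped at 6 h in PLZF/RARA and were apart in the other 3 comparisons.

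Isg20 in viral WT leukaemia read 9.51, 9.78, 9.52 and 9.46 untreated and 9.14 (median 9.87) to 10.43 with RA at 6 h, and 9.79 and 9.70 untreated against 10.54, 10.68, 9.36 and 9.89 at 12 h. In the pml-/- type it read 8.70, 8.62, 9.38 and 8.44 untreated and 8.35 (median 8.83) to 10.01 with RA at 6 h. At 12 h the arrays read 8.43 and 8.53 untreated and 10.11, 10.02, 10.02 and 10.19 with RA (1.60 ± 0.37, adjusted p = 0.00598), a 3.04-fold change with close replicates. That was the only viral comparison in which Isg20 was called or its arrays were apart. The call was lost on leaving out either of 2 arrays (limma adjusted p from 0.0824 to 0.0871).

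Rsad2 rose in PML/RARA leukaemia at 6 h (0.83 ± 0.28, adjusted p = 0.0441) and 12 h (1.20 ± 0.27). Cmpk2, a nucleotide kinase that lies beside Rsad2 in the genome, rose at 12 h in PML/RARA (0.57 ± 0.17) and PLZF/RARA (0.99 ± 0.24). Rtp4 rose by 2.41 ± 0.48 in PLZF/RARA leukaemia at 12 h, from 5.67 and 5.36 untreated to 5.86, 8.24, 8.35 and 9.24. All 4 RA arrays of Rtp4 were above the untreated pair, the first by 0.19. The kinase Eif2ak2 (PKR), which shuts down translation on sensing double-stranded RNA, rose there too (0.83 ± 0.23). Ifitm3 rose in PML/RARA leukaemia at 12 h only (0.45 ± 0.15, adjusted p = 0.0302). Mx1, Mx2, the tether Bst2 and Ifitm1 were called in no RA comparison. Mx1, of which many laboratory strains carry a defective allele, lay between 4.87 and 5.52 on every untreated array. Ifitm1 arrays in PLZF/RARA leukaemia at 12 h read 13.20 and 13.26 untreated and 12.60, 12.70, 12.57 and 12.73 with RA, apart downward (-0.58 ± 0.25, adjusted p = 0.226).

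Both genes of the ISG15 system rose at 12 h in the transgenic leukaemias and in no other comparison. Herc6, the ligase that attaches ISG15 in mice, rose by 0.46 ± 0.14 in PML/RARA and 0.74 ± 0.19 in PLZF/RARA. Usp18 removes ISG15 and dampens the interferon receptor. In PML/RARA leukaemia it read 9.53, 8.86, 8.30 and 8.73 untreated and 9.15 (median 9.54) to 9.85 with RA at 6 h (0.73 ± 0.32, adjusted p = 0.137), and 8.96, 9.12, 8.28 and 8.14 untreated against 9.49 (median 9.65) to 9.91 at 12 h (1.05 ± 0.31, adjusted p = 0.0114). In the PLZF/RARA type it read 5.34 and 7.30 untreated and 6.12, 6.07, 5.60 and 6.26 with RA at 6 h, and 5.97 and 6.24 untreated against 6.56, 8.03, 8.68 and 9.45 at 12 h (2.07 ± 0.44, adjusted p = 0.00276). The untreated and RA arrays were apart at 12 h in both types and overlapped at 6 h. In viral WT leukaemia Usp18 read 9.36, 9.52, 9.42 and 9.65 untreated and 8.08 (median 9.33) to 10.14 with RA at 6 h, and 10.14 and 9.72 untreated against 9.61, 9.52, 9.06 and 9.71 at 12 h. Arrays labelled pml-/- read 7.32, 7.20, 6.35 and 6.91 untreated and 6.16 (median 6.82) to 7.73 with RA at 6 h, and 7.0 and 6.91 untreated against 7.63, 6.39, 8.15 and 7.57 at 12 h. The 12 h viral WT arrays were all below the untreated pair with RA, and no viral change of Usp18 was called.

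**Figure D4:**
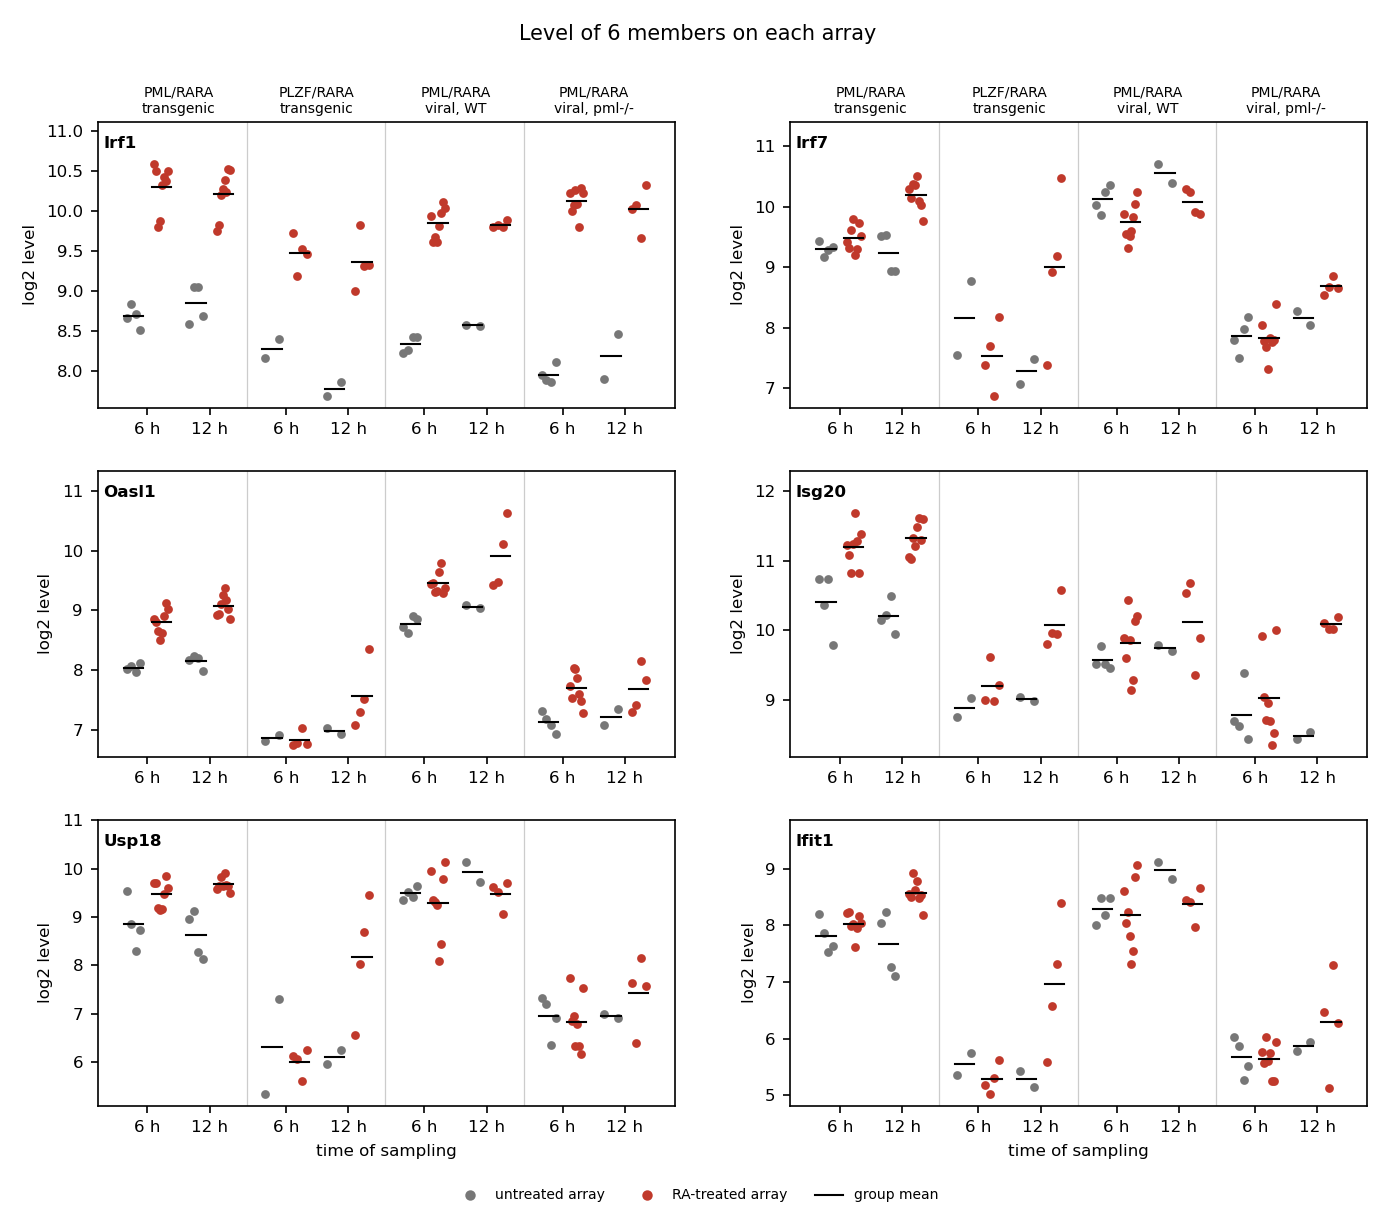
Log2 level (y axis) of Irf1, Irf7, Oasl1, Isg20, Usp18 and Ifit1 on each array by leukaemia type and time (x axis), untreated in grey, RA in red, with group means as lines. Irf1 is apart between RA and untreated arrays in every pair of groups, Oasl1 is apart in viral WT leukaemia at both times, and Isg20 in viral pml-/- leukaemia at 12 h reads 10.02 to 10.19 against 8.43 and 8.53.

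Parp9 and Dtx3l work as a pair in interferon signalling and DNA damage, and Parp14 is a related ADP-ribosyltransferase. All 3 rose at 6 h and 12 h in PML/RARA leukaemia and at 12 h in PLZF/RARA leukaemia, by 0.36 to 1.38. Dtx3l in PML/RARA leukaemia read 10.08, 10.03, 9.86 and 9.79 untreated and 10.17 (median 10.39) to 10.60 with RA at 6 h (0.50 ± 0.09), and 9.90, 10.23, 9.66 and 9.75 untreated against 10.32 (median 10.45) to 10.60 at 12 h (0.57 ± 0.09). PLZF/RARA arrays read 9.47 and 9.88 untreated and 9.93, 9.89, 9.81 and 10.06 with RA at 6 h, and 9.73 and 9.52 untreated against 9.98, 10.32, 10.21 and 10.49 at 12 h (0.62 ± 0.13). The changes were small, yet 3 of these 4 pairs of groups did not overlap. In viral WT leukaemia Dtx3l read 10.00, 10.16, 9.87 and 10.03 untreated and 9.52 (median 10.37) to 10.58 with RA at 6 h, and 10.01 and 9.91 untreated against 10.27, 10.26, 10.05 and 10.31 at 12 h. In the pml-/- type it read 9.53, 9.40, 9.37 and 9.43 untreated and 9.01 (median 9.62) to 9.96 with RA at 6 h, and 9.25 and 9.29 untreated against 9.81, 9.86, 10.00 and 9.93 at 12 h (0.63 ± 0.20, adjusted p = 0.0587). The 12 h arrays were apart in both viral types without a called change. Parp9 rose in viral WT leukaemia at 6 h (0.37 ± 0.12, adjusted p = 0.0450) and in pml-/- leukaemia at 12 h (0.55 ± 0.17, adjusted p = 0.0484).

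Among the 5 remaining members, Trim30a, a restriction factor that also limits NF-kappaB signalling, and Ifi35 rose in the same 3 transgenic comparisons as the PARP genes. Trim30a in PML/RARA leukaemia read 11.32, 11.07, 10.91 and 10.98 untreated and 11.34 (median 11.49) to 11.68 with RA at 6 h (0.46 ± 0.13), and 11.26, 11.10, 10.73 and 10.73 untreated against 11.47 (median 11.56) to 11.66 at 12 h (0.60 ± 0.13). In the PLZF/RARA type it read 9.77 and 9.94 untreated and 10.01, 9.76, 9.47 and 10.17 with RA at 6 h, and 9.49 and 9.66 untreated against 10.12, 10.69, 10.59 and 11.21 at 12 h (1.08 ± 0.18). The groups overlapped at 6 h in PLZF/RARA alone of these 4. In the viral WT type it read 11.01, 11.12, 11.07 and 11.17 untreated and 10.48 (median 11.07) to 11.59 with RA at 6 h, and 11.29 and 11.18 untreated against 11.48, 11.50, 10.81 and 11.14 at 12 h. Arrays labelled pml-/- read 10.46, 10.29, 10.41 and 10.57 untreated and 9.84 (median 10.46) to 11.08 with RA at 6 h, and 10.56 and 10.54 untreated against 10.82, 10.60, 11.20 and 11.01 at 12 h. RA arrays spread to both sides of the untreated ones, except at 12 h in pml-/- leukaemia, where all 4 were higher and the change was not called (0.35 ± 0.27, adjusted p = 0.630).

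Xaf1, which promotes apoptosis, rose at 12 h in PLZF/RARA (1.24 ± 0.25) and pml-/- leukaemia (0.78 ± 0.22). Lgals3bp, a secreted galectin-binding glycoprotein, rose only in pml-/- leukaemia at 12 h (0.87 ± 0.22, adjusted p = 0.0134). Tap1, the peptide transporter of antigen presentation, rose only in viral WT leukaemia at 6 h (0.33 ± 0.10, adjusted p = 0.0251). Over the 8 comparisons 6 members, Ifit2, Ifit3, Mx1, Mx2, Bst2 and Ifitm1, rose in none, 9 rose in 1, 9 in 2, 9 in 3, 1 in 4, 2 in 5 and 1 in all 8. Of all genes, 84.6% rose in none, 7.09% in 1, 3.26% in 2, 1.64% in 3, 1.06% in 4, 0.772% in 5 and 0.306% in all 8.

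Single arrays bear on these counts in PML/RARA transgenic leukaemia. The 11 members called at 6 h fell to 6 without untreated replicate 4, and rose to 20 when only the 12 arrays compared entered the fit. The 23 called at 12 h fell to 14 without untreated replicate 3. RA and untreated arrays did not overlap, upward, for 10 members at 6 h (4.71% of all genes) and 17 at 12 h (6.57%), and downward for none (7.75% and 6.86% of all genes). Of 6 erythroid markers, 4 rose at 12 h in the same samples, where their mean level was 8.39 to 9.15 untreated and 8.62 to 10.20 with RA. Of 13 neutrophil markers 5 rose and 2 fell, and the part of these cells in the result was not tested.

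In PLZF/RARA leukaemia the rise at 12 h stood on 4 RA arrays that differed widely. Members lay above both untreated arrays in number 28, 33, 34 and 36 on RA replicates 1, 2, 3 and 4, with a median member difference of 0.35, 0.88, 0.95 and 1.54. The median over all genes on these arrays lay between -0.09 and -0.04. Replicate 1 was the lowest of the 4 for 35 of 37 members and replicate 4 the highest for 32. The median SD of a member over the RA arrays of this type was 0.381, against 0.166 for all genes. Over the RA arrays of PML/RARA transgenic leukaemia it was 0.152, against 0.143 for all genes. Both types share the fitted spread of each gene. All 4 RA arrays were above the untreated pair for 28 members (7.93% of all genes), and Ifitm1 was apart downward (15.6%).

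The cell marker means of the same 4 arrays are given as a description. On replicates 1 to 4 the mean of the neutrophil markers read 11.05, 11.29, 11.23 and 11.07, and that of the monocyte and macrophage markers 8.69, 8.66, 8.47 and 8.33. The T and NK cell markers read 6.89, 7.17, 6.85 and 6.95, and the plasmacytoid dendritic cell markers, which include the member Bst2, read 6.76, 6.83, 6.99 and 7.09. The erythroid markers read 7.45, 7.38, 7.09 and 6.91, and the B cell markers 6.38, 6.00, 6.51 and 6.12. The promyelocyte markers read 11.71, 11.65, 11.71 and 11.79. The array with the highest members was thus lowest in monocyte and erythroid markers and highest in plasmacytoid dendritic cell and promyelocyte markers. The part of these cells was not tested. The untreated pair read 10.27 and 10.85 for the neutrophil markers, below every RA array, and 5 of those 13 genes rose.

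The 25 members called in PLZF/RARA leukaemia at 12 h fell to 13 without untreated replicate 2, and to 6 (5 up and 1 down) when only the 6 arrays compared entered the fit. The single call at 6 h, Irf1, was lost without untreated replicate 1. At 6 h the arrays were apart upward for 3 members (12.3% of all genes) and downward for 3 (5.64%). Untreated replicate 2 at 6 h was the array with high Oas2, Rtp4 and Usp18. It was the higher of the untreated pair for 35 of 37 members.

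**Figure D5:**
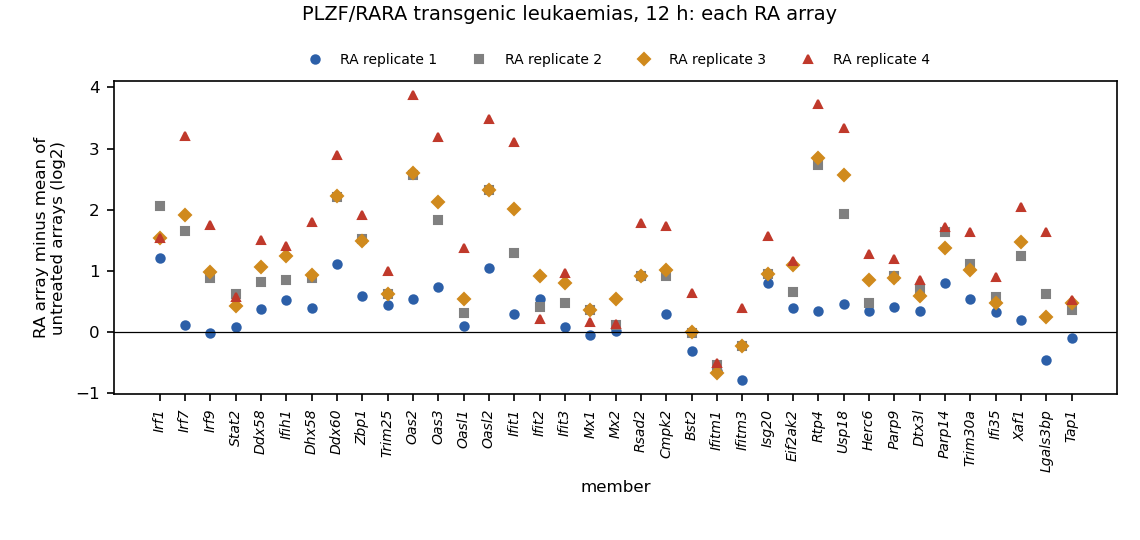
Difference of each RA array at 12 h from the mean of the 2 untreated arrays (log2, y axis) for the 37 members (x axis) in PLZF/RARA transgenic leukaemia, with 1 symbol per RA replicate. Replicate 4 is the highest for 32 members and replicate 1 the lowest for 35, and Ifitm1 is below 0 on all 4.

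In viral WT leukaemia the RA arrays at 6 h went both ways. On the 8 arrays 19, 8, 7, 10, 4, 6, 24 and 25 members lay above every untreated array, and 7, 17, 18, 20, 29, 21, 4 and 1 lay below every one. Only Irf1 and Oasl1 were apart upward at 6 h (3.72% of all genes) and only Ifitm1 downward (2.20%). At 12 h 5 members were apart upward (14.0%), Irf1, Oasl1, Parp9, Dtx3l and Tap1, and 3 downward (14.2%), Irf7, Ifit1 and Usp18. The 12 h shares of members lie at or below those of all genes. RA replicate 3 at 12 h had 5 members above and 25 below the untreated pair, and replicate 4 had 15 above and 14 below. The neutrophil marker mean was 11.32 on replicate 3 and 11.36 on replicate 4, near the untreated 11.34 and 11.41. It was 12.39 and 12.34 on replicates 1 and 2, and the part of these cells was not tested.

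The 4 members called in viral WT leukaemia at 6 h became 2 without untreated replicate 1, 2 or 3 and 1 within batch 3, and 7 (4 up, 3 down) with the untreated arrays of both times pooled. The 2 called at 12 h became 1 without untreated replicate 1 or 2 or RA replicate 3.

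In viral pml-/- leukaemia 20 members were apart upward at 12 h (16.1% of all genes) and 1 at 6 h (3.24%), with none apart downward (13.7% and 3.10%). The RA arrays at 12 h had 32, 21, 34 and 28 members above both untreated arrays. Of 13 neutrophil markers, 5 rose at 12 h, with a mean of 9.36 and 9.78 untreated and 9.98 to 10.68 with RA, and their part in the result was not tested. The 8 members called at 12 h became 2 and 3 without untreated replicate 1 and 2, 5 without RA replicate 3 and 14 with untreated arrays of both times pooled. The 2 called at 6 h became 1 without untreated replicate 2, 3 or 4 or RA replicate 3 or 5, and 5 without RA replicate 7.

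Whether RA acted differently between leukaemia types was tested directly. Averaged over both times, the RA effect in the transgenic model was larger in PML/RARA than in PLZF/RARA for Oasl1, by 0.58 ± 0.17 (adjusted p = 0.0308), and smaller for Ifit2, by -0.67 ± 0.15 (adjusted p = 0.00372). Over all genes 3.35% were larger and 4.07% smaller. In Ifit2 at 12 h the PLZF/RARA arrays read 6.68 and 6.55 untreated and 7.16, 7.02, 7.53 and 6.83 with RA. The PML/RARA arrays read 7.79, 7.91, 7.14 and 7.37 untreated and 7.25 (median 7.32) to 7.52 with RA. RA arrays were above the untreated pair in PLZF/RARA and within the untreated range in PML/RARA leukaemia. At 6 h Oasl2 differed by 1.88 ± 0.50 (adjusted p = 0.0474), where 0.903% of all genes were larger and 0.612% smaller. No difference was called at 12 h, where 1.78% of all genes were larger and 1.15% smaller, and 12 members (15.1% of all genes) had an unadjusted p below 0.05. The nearest were Ddx60 (-1.31 ± 0.38, adjusted p = 0.0518), Ifit2 (-0.71 ± 0.21, adjusted p = 0.0551) and Oas2 (-1.85 ± 0.55, adjusted p = 0.0591).

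The lists of members called at 12 h in the transgenic types share 19 genes, which is 19 of the 23 in PML/RARA and 19 of the 25 in PLZF/RARA. Of all genes 9.88% rose in PML/RARA and 2.46% in PLZF/RARA at 12 h. The share of all genes that rose in both was not counted, so the overlap is only a description. Ifitm3, Oasl1, Rsad2 and Stat2 were called in PML/RARA and not in PLZF/RARA, and Ddx58, Eif2ak2, Irf9, Oas2, Rtp4 and Xaf1 the other way round. For none of these 10 was the difference in RA effect at 12 h called. The call on Oasl1 averaged over both times was lost within batch 1 alone and on leaving out either untreated PLZF/RARA array at 6 h or 12 h, RA replicate 1 of PLZF/RARA at 12 h, or untreated replicate 3 at 6 h or 4 at 12 h of PML/RARA. The call on Oasl2 at 6 h was lost on leaving out any of 13 of the 18 arrays in that comparison and within batch 1 alone. The count of 0 at 12 h became 6 without RA replicate 1 and 3 without RA replicate 4 of PLZF/RARA. It became 3 without untreated replicate 3, 2 without RA replicate 1, and 1 without RA replicate 2 or untreated replicate 4 of PML/RARA.

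In the viral model the RA effect averaged over both times was smaller in WT than in pml-/- leukaemia for 3 members and larger for none. Irf1 differed by -0.62 ± 0.13 (adjusted p = 0.00909), Irf7 by -0.66 ± 0.16 (adjusted p = 0.0278) and Lgals3bp by -0.75 ± 0.19 (adjusted p = 0.0492). Over all genes 0.381% were larger and 0.752% smaller. At 6 h Irf1 alone differed (-0.65 ± 0.15, adjusted p = 0.0441), against 0.256% of all genes. At 12 h none was called by limma, with 0.0301% of genes larger and 0.0853% smaller, and 8 members (5.31% of all genes) had an unadjusted p below 0.05. Lgals3bp read 12.26 and 12.16 untreated and 11.88, 11.85, 12.22 and 12.22 with RA in WT at 12 h. In pml-/- leukaemia at 12 h it read 10.01 and 10.88 untreated and 11.05, 10.90, 11.82 and 11.50 with RA. At 12 h the pml-/- RA arrays of Lgals3bp thus lay above their untreated pair. The highest of them, at 11.82, was just under the lowest WT array at 12 h, at 11.85. The averaged count of 3 became 1 without untreated pml-/- replicate 2 at 6 h, untreated pml-/- replicate 1 at 12 h or untreated WT replicate 1 at 12 h, and 0 within batch 3 alone. The call on Irf1 at 6 h was lost on leaving out any of 17 of the 24 arrays in that comparison and within batch 3 alone.

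Time was tested in the same fits. The RA effect was larger at 12 h than at 6 h in PLZF/RARA leukaemia for Oas2 (3.51 ± 0.64) and Oasl2 (3.14 ± 0.57), both with an adjusted p of 0.0197, where 0.0201% of all genes were larger. Oas2 read 6.68 and 8.69 untreated and 6.45, 7.0, 6.23 and 6.62 with RA at 6 h. Its 12 h levels were 6.28 and 6.72 untreated and 7.05, 9.07, 9.11 and 10.37 with RA. The RA arrays rose between the times, and the untreated 6 h group included the array at 8.69. In that contrast the median over all genes was -0.11 and that of the members 0.75. The count of 2 became 0 without untreated replicate 2 or RA replicate 1 at 6 h, or untreated replicate 1 or RA replicate 3 at 12 h. It became 15 without RA replicate 1 at 12 h, and between 4 and 12 on leaving out untreated replicate 1 or RA replicate 2 or 4 at 6 h or untreated replicate 2 at 12 h. In PLZF/RARA leukaemia 26 members had an unadjusted p below 0.05 for this contrast, against 12% of all genes. No member was called for this contrast in the other 3 types, where 5 (PML/RARA), 0 (viral WT) and 7 (viral pml-/-) had an unadjusted p below 0.05, against 8.14%, 1.49% and 6.31% of all genes.

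RA arrays of the 2 times were also set against each other. For PLZF/RARA leukaemia, 22 members were higher at 12 h (0.607% of all genes), from 0.49 for Trim25 to 2.47 for Rtp4, and the count was 13 without RA replicate 3 and 14 without RA replicate 4 at 12 h. When only the groups compared entered the fit, the counts were 0 in PLZF/RARA, 14 in PML/RARA and 0 in pml-/- leukaemia, against 22, 3 and 4. In PML/RARA leukaemia Stat2, Trim25 and Ifit3 were higher at 12 h (2.84% of all genes), and in pml-/- leukaemia Irf7, Dhx58, Oas2 and Isg20 (1.08%). The call on Stat2 (0.28, adjusted p = 0.0472) was lost on leaving out any one of the 16 arrays compared (0.0504 to 0.102). The count in PML/RARA was 1 without any of 7 RA arrays (replicates 4, 6, 7 and 8 at 6 h, 1, 4 and 7 at 12 h). The count in pml-/- was 2 without RA replicate 5, 6 or 7 at 6 h or 1 or 3 at 12 h, and 10 without RA replicate 8 at 6 h. No member was called in viral WT leukaemia, where 4 (6.7% of all genes) had an unadjusted p below 0.05. Between untreated arrays of the 2 times no member was called by limma. The members with an unadjusted p below 0.05 numbered 4 in PLZF/RARA (7.80% of all genes) and 0 in PML/RARA (7.61%), viral WT (1.10%) and viral pml-/- leukaemia (1.04%).

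Members with and without the ISRE core in their window were counted as a description, with no test. Of the 12 with a match, 2 and 8 rose with RA at 6 h and 12 h in PML/RARA, 0 and 7 in PLZF/RARA, 0 and 0 in viral WT and 0 and 1 in viral pml-/- leukaemia. Of the 16 without one, 6 and 10, 1 and 11, 3 and 2, and 2 and 5 rose in the same order. Of the members that hold a GAS match and no ISRE core, Irf1 rose in 8 comparisons, Isg20 in 4, Ifi35 in 3 and Ifit2 in 0. Eif2ak2 and Ifitm3, which like Bst2 hold both, rose in 1 each. Bst2, with 2 overlapping ISRE matches, rose in none and was 0.84 ± 0.09 higher in untreated WT than pml-/- leukaemia. In the untreated transgenic comparison 9 of 12 and 12 of 16 were higher in PML/RARA leukaemia, and in the untreated viral comparison 11 of 12 and 16 of 16 in WT.

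The surrounding pathway was followed with 4 lists. Over all genes between 1.45% and 9.88% rose and between 0.747% and 11.7% fell in the RA comparisons. Of 21 genes for interferon ligands, receptors and signalling, between 1 and 5 rose and at most 1 fell in each RA comparison. These 21 include the member Usp18. Ifngr1, a chain of the interferon gamma receptor, rose in all 8 by 0.43 to 0.87, and Stat3 in 7 of 8. Ifnar2 rose in viral WT leukaemia at 6 h (0.31 ± 0.06) and 12 h (0.32 ± 0.08) and in pml-/- leukaemia at 6 h (0.26 ± 0.06). Ifnb1, which encodes interferon beta, and Ifnar1, Jak1 and Tyk2 were called in none. The changes of Ifnb1 lay between -0.30 and 0.15, and its group means between 4.66 and 5.01. Socs1, an inhibitor of Jak kinases, fell in PLZF/RARA by 0.66 at 6 h and by 0.88 at 12 h, and in viral WT leukaemia it fell by 0.52 and by 0.68. Jak2 rose in pml-/- leukaemia at 12 h (0.98 ± 0.13).

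Of 19 genes that sense nucleic acid or pass the signal to interferon, 5 rose and 1 fell at 6 h and 8 rose and 2 fell at 12 h in PML/RARA, and 0 and 4 rose in PLZF/RARA. In viral leukaemia 4 and 2 rose in WT, and 1 and 4 rose with 1 fall at 6 h in pml-/-. Ikbke, a kinase that activates Irf3 and Irf7, rose in PML/RARA by 1.98 ± 0.18 and 1.87 ± 0.18, in PLZF/RARA at 12 h by 1.19 ± 0.25, in viral WT at 6 h by 1.70 ± 0.45 and in pml-/- at 12 h by 2.19 ± 0.64. Unc93b1, the chaperone of endosomal Toll-like receptors, rose in 6 of 8 comparisons and Samhd1, a nucleotide hydrolase, in 4.

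Of 22 interferon gamma targets and antigen presentation genes, 7 and 13 rose in PML/RARA at 6 h and 12 h, 4 and 9 in PLZF/RARA, 1 and 0 in viral WT and 1 and 7 in pml-/- leukaemia. Ciita fell in viral WT leukaemia at 6 h, the only fall of this list. Tap2, the partner of the member Tap1, rose in 7 of 8 comparisons by 0.48 to 1.04, and the immunoproteasome subunit Psmb10 rose in 5, by 0.65 to 0.97.

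Of 44 further interferon-induced genes, 8 and 21 rose in PML/RARA, 0 and 15 in PLZF/RARA, 3 and 2 in viral WT and 5 and 8 in pml-/- leukaemia. Between 0 and 2 fell. Pml rose in PML/RARA by 1.18 ± 0.11 and 1.17 ± 0.11, in viral WT at 6 h by 0.53 ± 0.13 and, by this probe set, in leukaemia labelled pml-/- at 6 h by 0.70 ± 0.13. Sp100, its partner in nuclear bodies, rose at 12 h in PML/RARA (0.46 ± 0.09) and PLZF/RARA (0.71 ± 0.13). Ube2l6, the conjugating enzyme for ISG15, rose in PML/RARA by 1.33 ± 0.19 and 1.57 ± 0.18, and Uba7, the activating enzyme, at 12 h by 0.28 ± 0.10. Ms4a4c fell in 6 comparisons, all those with PML/RARA as the fusion, by 1.10 to 1.64. Its change in PLZF/RARA was -0.33 ± 0.29 at 6 h and 0.03 ± 0.29 at 12 h.

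The same lists were counted in untreated leukaemias, where 13.1% (transgenic) and 9.92% (viral) of all genes were higher and 12.2% and 10.9% lower. In PML/RARA against PLZF/RARA 26 of the 44 further genes were higher and 7 lower, and 14 of the 22 gamma targets higher and 2 lower. Of the 21 signalling genes 9 were higher and 2 lower, Socs1 by -1.61 ± 0.10, and of the 19 sensing genes 11 were higher and 1 lower. In viral WT against pml-/- 29 of 44 were higher and none lower, 13 of 22 higher and none lower, 9 of 19 higher and none lower, and 7 of 21 higher and 1 lower. Ube2l6 was higher by 2.24 ± 0.19 and 2.66 ± 0.22, Oas1a by 2.63 ± 0.13 and 2.20 ± 0.22, and Jak2 by 0.33 ± 0.11 and 1.65 ± 0.09 in the transgenic and viral comparisons.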

How the data were processed

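Total RNA from frozen leukaemic bone marrow was hybridised to 72 Affymetrix Mouse Gene 1.0 ST arrays. The authors deposited log2 values per probe set, made with RMA in the affy package per the submitters' processing notes; the sources used here give neither the package versions nor the probe annotation they used. Of 35556 probe sets, 21789 carried a single gene symbol in the platform annotation, and the brightest per symbol was kept (19938 genes). Values ran from 2.60 to 14.24. The number of arrays limits the precision.

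Each model (36 transgenic and 36 viral arrays) was fitted with limma 3.58.1 in R 4.3.3, with 1 coefficient per group and an additive term for the batch in the labels, followed by eBayes with 27 residual degrees of freedom. P-values were adjusted over all 19938 genes by Benjamini-Hochberg, and a call means an adjusted p below 0.05. Errors are standard errors of the fitted change. The fits were tested on simulated data. Groups come from the labels, and replicates are numbered in accession order, which is only a name. No sample was dropped or imputed. The alternatives were other normalization, filter, probe set rule, batch handling and sample sets, and each array left out in turn. Promoter windows were searched for motif letters on both strands.

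The members and gene lists were chosen with earlier results of these data known. All members found are named. Values on every array are given for Irf1, Irf7, Stat2 and, in each other role, the member with the largest summed moderated F of its RA effects. Of other pathway genes, up to 3 called genes per list and RA effect with the largest absolute moderated t could be named, plus Ifnb1, Ifnar1, Ifnar2, Jak1, Tyk2, Socs1, Pml, Sp100 and Uba7; a further gene is not reported here. Jak2, Oas1a and Ube2l6 are named in the untreated comparisons by choices made after their values were seen. The array values of Rtp4, Oas2, Ifitm1, Ddx60, Ifit2 and Lgals3bp fall outside the rule and were chosen in the same way. So were the range of Mx1 and the mention of Bst2 beside the motif counts.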

Additional observations from a re-analysis of the deposited data

Results flagged for a closer look

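In groups of 4 to 10 arrays, 1 array lay far from the rest in 4 of the 132 sets of values looked at, and chance alone gives about 1 in 20. In PLZF/RARA leukaemia at 6 h with RA, replicate 3 was low for Stat2 (8.60, the nearest at 9.19) and high for Oasl1 (7.02, the nearest at 6.77). In PML/RARA leukaemia at 6 h with RA, replicate 5 was low for Ifit1 (7.62, the nearest at 7.95). In viral WT leukaemia at 12 h with RA, the mean over the 37 members was low on replicate 3 (9.17, the nearest at 9.55).

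The RA effect differed between groups in the limma test of the difference itself for these members. Averaged over both times, PML/RARA minus PLZF/RARA gave -0.67 for Ifit2 and 0.58 for Oasl1, and 1.88 for Oasl2 at 6 h. Viral WT minus pml-/- gave -0.62 for Irf1, -0.66 for Irf7 and -0.75 for Lgals3bp averaged over both times, and -0.65 for Irf1 at 6 h. In PLZF/RARA leukaemia 12 h minus 6 h gave 3.51 for Oas2 and 3.14 for Oasl2.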

How the results depend on the processing

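Of 28 counts of called members, 168 settings other than leaving out an array stayed within 1.5 times the count reported and 29 did not. Without the batch term the counts were 5 (pml-/- 12 h), 1 (viral difference averaged), 0 (viral difference at 6 h) and 5 (RA arrays of PML/RARA, 12 h against 6 h). Fitting only the groups compared gave 20 (PML/RARA 6 h), 6 (PLZF/RARA 12 h), 1 (viral WT 12 h), 14, 0 and 0 (RA arrays across times in PML/RARA, PLZF/RARA and pml-/-), 2 (transgenic difference at 6 h) and 0 (PLZF/RARA effect across times). With untreated arrays of both times pooled, counts were 14 (pml-/- 12 h), 7 (viral WT 6 h), 5 (pml-/- 6 h), 3 and 2 (transgenic difference at 12 h and 6 h) and 1 (viral difference at 12 h). Quantile normalization gave 2 and leaving out the dimmest genes (the lowest 25% by mean level) 3 for the transgenic difference at 12 h. A trended, robust eBayes gave 0 for the transgenic difference at 6 h and 0 for the PLZF/RARA effect across times. The mean of all single-symbol probe sets gave 0 for the viral difference at 6 h. Batch 3 alone gave 1 and 1 (viral WT and pml-/- 6 h) and 0 and 0 (viral difference averaged and at 6 h), and batch 1 alone 1 and 0 (transgenic difference averaged and at 6 h). The cause was not tested in any of these.

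Leaving out each array in turn gave 6 to 13 and 14 to 24 members in PML/RARA at 6 h and 12 h, 0 to 1 and 13 to 29 in PLZF/RARA, 2 to 5 and 1 to 2 in viral WT, and 1 to 5 and 2 to 8 in pml-/-. The untreated differences gave 28 to 33 and 33 to 35. The transgenic difference gave 1 to 3 averaged, 0 to 3 at 6 h and 0 to 6 at 12 h, and the viral one 1 to 4 averaged and 0 to 1 at 6 h. Across times the PLZF/RARA effect gave 0 to 15, and RA arrays gave 13 to 26 (PLZF/RARA), 1 to 3 (PML/RARA) and 2 to 10 (pml-/-). The members chosen by the rule for array values had 64 calls over all comparisons. For these calls 119 of 1221 settings lost the call and 0 reversed its direction. No paired analysis was possible because the labels give every sample the same replicate number and a code of its own, and state no animal, litter or day that samples share.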
